A study of Mus musculus with 80 samples.

Results

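The genes described here are those for the proteins of the cytosolic ribosome, taken by symbol from the count tables: every symbol that starts with Rpl or Rps followed by a digit, together with Rplp0, Rplp1, Rplp2 and Rpsa. Symbols of the ribosomal S6 kinases (10 symbols starting Rps6k) and symbols holding -ps (6, a suffix of pseudogenes) were left out. This gave 88 members of 32764 listed genes, of which 54 carry names of the large subunit and 33 of the small subunit. The remaining symbol, Rps19bp1, names a protein that binds Rps19 and is not itself part of the ribosome. It was kept because the rule takes symbols only. GENCODE types 85 members as protein coding and 3 (Rpl32l, Rpl37rt and Rps4l) as processed pseudogenes, of which Rpl37rt and Rps4l as transcribed ones, and these were kept for the same reason.

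RNA was sequenced from inguinal white adipose tissue (iWAT), brown adipose tissue (BAT), liver and muscle of male C57BL/6J mice of 4 genotypes: wildtype (WT), FGF21 KO, UCP1 KO and mice lacking both genes (dKO). The labels spell the last group "UCP1/FGF12 double KO", while the study describes mice without UCP1 and FGF21, and that reading is used here. All groups shared the same housing history: mice were bred and weaned at 30 °C, moved to room temperature at 10 to 12 weeks of age and given a high-fat diet for 3 weeks before the tissues were taken. Both knockouts are whole-body and homozygous, and some Ucp1 reads were still counted in UCP1 KO mice. UCP1 is the mitochondrial carrier that lets brown fat burn fuel for heat, and FGF21 is a hormone that brown fat and liver release under metabolic stress. Each genotype had 5 libraries per tissue, 80 libraries in all. The labels give no replicate numbers, so numbers such as WT 4 only name libraries in their listed order.

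Cytosolic ribosomal proteins assemble with ribosomal RNA into the small and large subunits that translate nuclear-encoded mRNA. Their mRNAs belong to the 5' terminal oligopyrimidine (TOP) class, which starts with a C followed by a run of pyrimidines and whose translation is controlled by mTORC1 through La-related protein 1. Most members are among the abundant mRNAs of every cell, while several have a paralog used in one tissue, such as Rpl3l in striated muscle and Rpl10l in testis. The inguinal fat depot surrounds a lymph node, so its dissection can include lymphocytes.

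For some members, the sequence around the annotated transcription start site shows the TOP feature. The 60 bases below hold 40 bases before and 20 bases from the start, 5' to 3' on the coding strand, from RefSeq (GRCm38.p6). Capitals mark the C-plus-pyrimidine run at the start, or a TATA box in Rpl22l1. They are shown for 4 members with a pyrimidine run that passed a test below, and for Rpl39l and Rpl22l1, which had the largest called rises in BAT and no such run at the start base itself (Rpl22l1 holds a run of C and 7 pyrimidines within 10 bases of it). Rps27 (chr3:90213629-90213688, minus strand) and Rps15a (chr7:118116128-118116187, minus strand) were higher in iWAT libraries with lymph node signal, Rpl38 (chr11:114668540-114668599, plus strand) and Rplp2 (chr7:141447611-141447670, plus strand) changed in BAT, and Rpl22l1 (chr3:28805468-28805527, plus strand) and Rpl39l (chr16:10170188-10170247, plus strand) are the paralogs of Rpl22 and Rpl39.
Rps27: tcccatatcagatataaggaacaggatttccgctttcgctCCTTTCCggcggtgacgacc
Rps15a: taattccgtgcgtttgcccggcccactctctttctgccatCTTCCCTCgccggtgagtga
Rpl38: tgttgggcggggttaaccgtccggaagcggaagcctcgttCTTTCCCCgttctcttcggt
Rplp2: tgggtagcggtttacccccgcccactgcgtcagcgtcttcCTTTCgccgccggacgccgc
Rpl22l1: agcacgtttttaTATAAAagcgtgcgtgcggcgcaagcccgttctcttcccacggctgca
Rpl39l: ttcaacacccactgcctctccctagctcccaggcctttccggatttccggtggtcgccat

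A start sequence was matched for 66 members. A C at the start followed by 4 pyrimidines stood at the start of 14 of them (21.2%), against 3.01% of all 27025 genes in the table. A C followed by 7 pyrimidines within 10 bases of the start was found in 25 (37.9%, against 9.43%). The letters ACTTCCG, the core bound by GABP and other ETS factors, were found on either strand in 22 members (33.3%, against 7.2%), and AAGATGGC, the core of the YY1 motif, in 6 (9.09%, against 3.19%). TATAAA between 40 and 15 bases before the start was found in 1 member, Rpl22l1 (1.52%, against 2.41%). These are matches to letters in a fixed window, and a start annotated a few bases away moves a run out of it.

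Library totals lay between 28691377 and 50380696 counts on genes (median 38022853), and none of 760 pairs of libraries of a tissue held identical counts. Defining markers of the labelled tissues were present: the adipocyte score (mean log2 of CPM + 0.1, where CPM is counts scaled to a common library size) was 7.04 to 9.01 in BAT, 9.05 to 11.54 in iWAT and at most 0.74 in liver, and hepatocyte markers stood at 12.42 to 13.14 in liver. The brown adipocyte score was 7.6 to 8.93 in BAT and 0.68 to 7.02 in iWAT, and the skeletal muscle score was 13.21 to 13.42 in muscle. In BAT, Ucp1 counts, which cover the whole symbol and not the deleted part, were 2983 to 7132 CPM in WT and 696 to 1332 CPM in UCP1 KO. In iWAT they went the other way between the libraries labelled WT, with 2.94 to 17.4 CPM, and UCP1 KO, with 110 to 599 CPM, while dKO (4.78 to 27.4 CPM) overlapped WT, so the counts of the whole symbol do not check the UCP1 labels there. Fgf21 had at most 3 counts in a BAT library of FGF21 KO or dKO mice and 9.48 to 37.9 CPM in UCP1 KO. It had 7 to 10 counts in WT, so BAT sets FGF21 KO (0 to 2 counts) apart from WT only at low counts. In liver it had 51 to 107 counts in WT and 0 to 2 in FGF21 KO. Skeletal muscle markers varied widely between BAT libraries: their score was 1.42 to 3.41 in WT, 1.61 to 5.05 in FGF21 KO, 2.33 to 9.59 in UCP1 KO and 2.84 to 8.67 in dKO. Nothing in the labels states that libraries of a group came from separate mice, so p-values measure the spread between these libraries.

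Members took a share of 0.857 to 1.53% of all counts in BAT, 1.40 to 4.19% in iWAT, 0.96 to 1.36% in liver and 1.02 to 1.14% in muscle. Muscle libraries were the most alike and iWAT libraries the least. In BAT the share was 0.938 to 1.05% in WT (median 0.989%), 0.857 to 1.09% in FGF21 KO, 0.989 to 1.53% in UCP1 KO and 1.01 to 1.19% in dKO. A share is taken of all counts, so it also moves when a few very abundant genes of a tissue fall or rise.

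**Figure D1:**
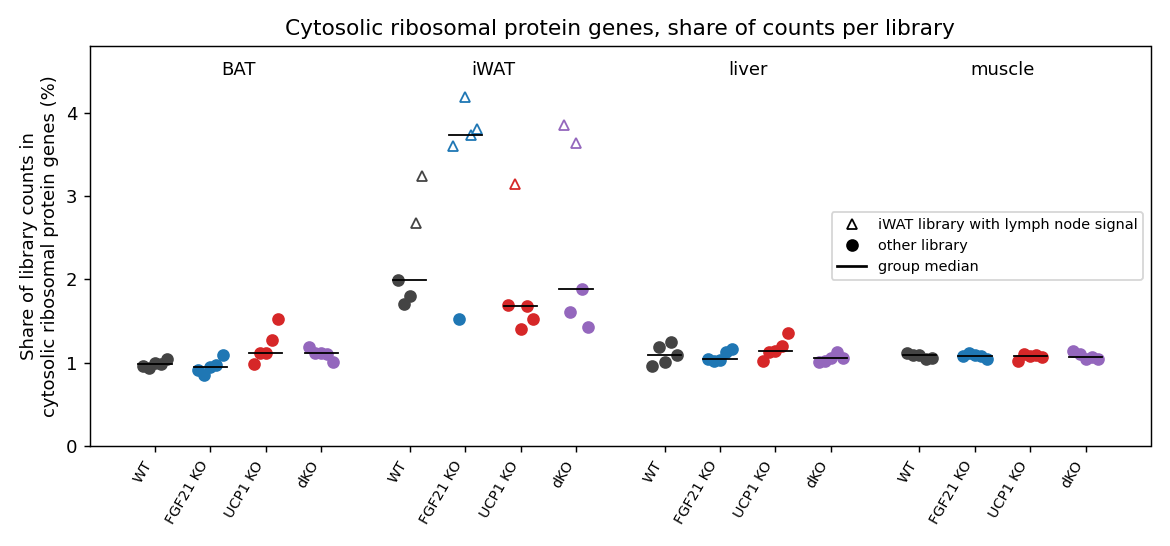
Share of each library's counts on the 88 members (y axis, %), by tissue and genotype (x axis); points are libraries, lines group medians, and open triangles the iWAT libraries with lymph node signal. The 9 triangles lie between 2.68 and 4.19%, above the 11 other iWAT libraries at 1.40 to 1.99%.

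Members share long stretches with other genes, which bears on how their reads were counted. Of the 88 members, 77 had at least 1 window of 100 bases in their transcript that is identical in a transcript of another annotated gene, 75 of them in annotated pseudogenes, and 38 had over 50% of their windows so repeated (median 41.4%). The largest share was that of Rps27 (98.37%), and 11 members had none, among them Rpl3l, Rps27l and Rpl39l. How the counting treated reads with several matches is not given in the sources used here, so the level of a member with many repeated windows is uncertain between it and its copies. Across 87 members, the share of repeated windows and the WT level per kilobase had a Spearman rho of 0.056 to 0.141 in the 4 tissues, given as a description over genes of the same libraries.

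In WT mice most members had similar levels in the 4 tissues, and a few, mainly paralogs, were set apart by tissue. The range between the highest and lowest tissue mean had a median of 0.66 on the log2 scale over 87 members, and 11 exceeded 1. The highest mean was in liver for 40 members, in iWAT for 29, in muscle for 13 and in BAT for 4 of the 86 members not at 0, and the lowest was in BAT for 62. The iWAT tally rested largely on WT 4 and 5, which held lymph node signal (described with the iWAT results) and a member share of 2.68 and 3.24% against 1.70 to 1.99%. Without them, in an alternative chosen after seeing the data, the highest mean was in liver for 51, in muscle for 21, in iWAT for 9 and in BAT for 5, and the lowest was in BAT for 60. Levels below are CPM scaled jointly over the 20 WT libraries, and those per kilobase, ranked without Rps19bp1, were divided by the length of 1 annotated transcript. Per kilobase, the most abundant members were Rplp2 (483) and Rps29 (355) in BAT, Rps27 (537), Rps12 (518) and Rplp1 (425) in iWAT, Rpl10 (662), Rps27 (458) and Rps18 (458) in liver, and Rps27 (448), Rplp1 (400) and Rpl4 (387) in muscle. The median member stood at 155, 205, 210 and 179 CPM per kilobase in BAT, iWAT, liver and muscle. Rpl10l had 0 counts in all 80 libraries, and the other members among the 3 lowest of a tissue were Rpl32l in BAT, iWAT and muscle, Rpl3l in BAT and liver, and Rpl39l in iWAT, liver and muscle. Without WT 4 and 5, the most abundant in iWAT were Rps12 (465), Rpl10 (399) and Rps27 (385), the median member stood at 183 CPM per kilobase, and Rpl3l took the place of Rpl39l among the 3 lowest.

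Rpl3 and Rpl3l, alternative forms of the large subunit protein uL3 that lines the peptidyl transferase centre, were in opposite order in muscle and in the other tissues. Rpl3l was at 474, 472, 469, 449.9 and 473 CPM in the 5 WT muscle libraries. It was at 0.317, 0.298, 0.930, 0.555 and 0.439 CPM in BAT and at 0.159 to 0.664 CPM in liver. Rpl3 was at 47.6, 48.8, 48.1, 51.4 and 47.3 CPM in muscle and at 179, 192, 179.6, 173 and 196 CPM in BAT. The groups do not overlap for either gene, and Rpl3l made up a median of 90.5% (89.6 to 90.8%) of the pair per length in muscle against 0.22% in BAT and 0.191% in liver. In WT iWAT, Rpl3l was at 0.0686, 0.0354, 0.132, 2.43 and 21.9 CPM, and the 2 high libraries, WT 4 and 5, were also those with a skeletal muscle score of 6.08 and 9.74. BAT minus muscle, the log2 fold change was -9.85 ± 1.33 (SE, adjusted p = 1.59e-06) for Rpl3l and 1.92 ± 0.10 (adjusted p = 1.12e-12) for Rpl3 by edgeR's quasi-likelihood test.

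Rps4l, an autosomal copy of the X-linked Rps4x that GENCODE types as a transcribed processed pseudogene, was lowest in muscle. Its WT levels were 1.60, 1.45, 1.34, 1.71 and 1.35 CPM in muscle, 14.2, 16.0, 17.4, 14.5 and 13.7 CPM in BAT, 6.97 to 13.7 CPM in iWAT and 6.92 to 11.8 CPM in liver. Each of the other tissues lay above muscle in every library, while iWAT and liver overlapped. The BAT minus muscle difference was 3.34 ± 0.18 (adjusted p = 2.62e-12), and the BAT minus liver difference 0.60 ± 0.16 (adjusted p = 0.00235). Rps4l made up 8.41% of the pair with Rps4x per length in BAT, 3.89% in iWAT, 3.46% in liver and 0.643% in muscle (medians of 5).

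Rps27l, a p53-responsive relative of Rps27, was at 122 to 160.2 CPM in liver, 66.2 to 71.4 CPM in BAT, 59.6 to 64.3 CPM in muscle and 26.7 to 35.1 CPM in iWAT, an order in which no neighbours overlapped. It was 1.17 ± 0.09 higher in BAT than in iWAT on the log2 scale (adjusted p = 5.45e-10), where the difference of Rps27 itself was -0.88 ± 0.19 (adjusted p = 0.000356). Without WT iWAT 4 and 5, which held lymph node signal, Rps27l stood at 1.05 (adjusted p = 1.88e-09) and Rps27 at -0.41 (adjusted p = 0.00122). With library totals in place of TMM factors, Rps27l stood at 0.44 (adjusted p = 3.92e-06) and Rps27 at -1.66 (adjusted p = 1.37e-06). Rpl22l1, the paralog of the RNA-binding protein Rpl22, was at 11.1 to 13.2 CPM in BAT against 24.1 to 34.4 in iWAT, 38.3 to 55.3 in liver and 45.5 to 54.9 in muscle. Liver and muscle overlapped, and BAT lay below the 3 other tissues in every library. BAT minus iWAT, liver and muscle, its log2 fold changes were -1.25 ± 0.11, -1.90 ± 0.11 and -2.05 ± 0.11, with a largest adjusted p of 5.76e-09. Rpl22l1 made up 12.0% of the pair with Rpl22 per length in BAT and 29.2% in muscle (medians).

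Rplp2, an acidic protein of the stalk that recruits elongation factors, ran the other way. It was at 179, 192, 216, 208 and 224 CPM in BAT, 122 to 188 CPM in iWAT, 84.2 to 122 CPM in muscle and 46.2 to 82.7 CPM in liver. BAT and iWAT overlapped, the other neighbours in this order did not, and BAT lay above muscle and liver in every library. The differences were 1.64 ± 0.16 against liver (adjusted p = 1.92e-08) and 1.03 ± 0.16 against muscle (adjusted p = 9.71e-06). Rpl36al, the paralog of Rpl36a, was at 45.5 to 53.9 CPM in liver, 26.1 to 30.0 in muscle, 16.5 to 19.6 in BAT and 12.8 to 18.2 in iWAT, the last pair overlapping. Rpl10, a late-joining protein of the large subunit, was at 473 to 582 CPM in liver, 287 to 394 in iWAT, 271 to 299.7 in muscle and 184 to 197 in BAT, with iWAT and muscle overlapping. BAT minus liver, the difference was -1.52 ± 0.09 (adjusted p = 3.92e-12) for Rpl36al and -1.48 ± 0.09 (adjusted p = 1.24e-11) for Rpl10. Rpl39l, a paralog of Rpl39 known from testis, was at 1.11 to 1.62 CPM in BAT and 0.195 to 0.576 CPM in muscle, 1.91 ± 0.39 higher in BAT (adjusted p = 0.000229). In liver it was at 0 to 0.0646 CPM, with 3 of 5 libraries at 0, so that its called difference from BAT has no readable fold.

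**Figure D2:**
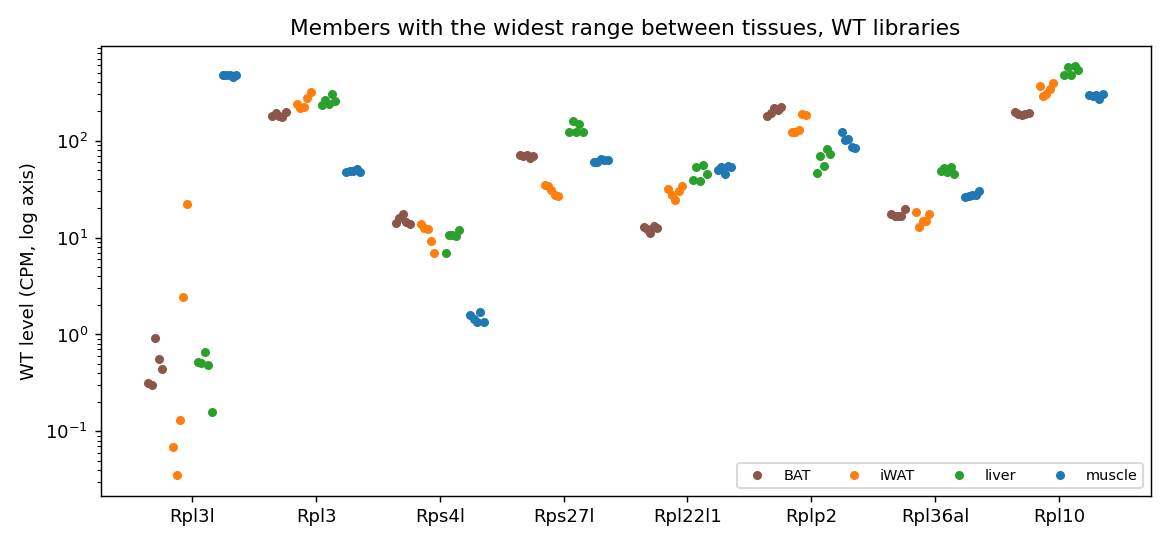
WT levels (y axis, CPM scaled jointly over 20 WT libraries, log axis) of the 8 members with the widest range between tissues (x axis); each point is 1 library, coloured by tissue. Rpl3l lies near 470 CPM in muscle and mostly under 1 CPM elsewhere, apart from 2 iWAT libraries at 2.43 and 21.9 CPM.

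Over all members tested, BAT was the tissue with the lower values. BAT minus iWAT, 55 of 86 members passed the test at an adjusted p under 0.01 (60.7% of all genes did), 4 higher and 51 lower, with a median log2 fold change of -0.45 against -0.10 over all genes. BAT minus liver, 55 passed (67.3% of all genes), 3 higher and 52 lower, with a median of -0.52 against 0.03. BAT minus muscle, 55 passed (64.1% of all genes), 12 higher and 43 lower, with a median of -0.34 against 0.02. The share of members that passed was thus near or below the background in each comparison, and their directions were uneven, where all genes split 28% to 32.7%, 34.8% to 32.5% and 32.3% to 31.8%. In the test over all 4 tissues, 74 of 86 passed, against 95.6% of all genes. BAT minus iWAT, the other members named by rule were the pseudogene Rpl37rt (0.64), Rpl7l1 (0.56) and Rps19bp1 (0.53), higher in BAT with TMM scaling and at -0.11, -0.18 and -0.21 with library totals, where none of them was called (adjusted p = 0.535, 0.0136 and 0.0534), and Rpl12 (-1.09, and -0.62 without WT iWAT 4 and 5), Rps4x (-1.09) and Rps3a1 (-0.88). Rpl4 was lower in BAT than in liver (-1.28) and muscle (-1.25), Rpl10a was lower than in liver (-1.0), and Rplp0, the scaffold of the stalk, was lower than in muscle (-0.82), while Rpl37rt was higher in BAT than in muscle (0.71).

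These splits depended on the scaling. With library totals in place of TMM factors, the median of all genes moved to -0.84, 0.37 and 0.25 in BAT minus iWAT, liver and muscle, and the splits of members became 1 higher and 79 lower, 9 and 20, and 13 and 13. All genes tilted too with library totals: 10.7% were higher and 65.0% lower against iWAT, 44.7% and 22.7% against liver, and 38.8% and 25.3% against muscle. Members then passed at 93.0%, 33.7% and 30.2%, against 75.7%, 67.4% and 64.1% of all genes. With library totals their share thus stood above the background against iWAT and below it against liver and muscle. Relative to the median of all genes, the members lay at -0.36, -0.54 and -0.35 with library totals, close to their position with TMM. Without the 2 WT iWAT libraries with lymph node signal, BAT minus iWAT gave 46 members (53.5%, against 60.6% of all genes), 8 higher and 38 lower. Of all genes, 29.1% were higher and 31.6% lower in that fit. The median of the members was -0.24 against -0.03 over all genes. The cytosolic and mitochondrial ribosomes differed in direction: of 76 genes for mitochondrial ribosomal proteins, 75 were higher and 0 lower in BAT than in iWAT (median 1.42), 57 higher and 3 lower than in liver (0.68), and 39 higher and 9 lower than in muscle (0.30); with library totals they also stood higher in each comparison (64 to 0, 72 to 0 and 59 to 4). Counted as higher to lower in BAT with TMM, ribosome biogenesis genes split 14 to 8 of 44 against iWAT, 5 to 23 against liver and 5 to 30 against muscle, and with library totals 1 to 31, 6 to 9 and 5 to 19. Initiation factors split 21 to 1 of 34, 2 to 19 and 4 to 25 with TMM, and 1 to 22, 10 to 7 and 6 to 22 with library totals, so only their direction against muscle was the same under both scalings.

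Elongation factors split 1 higher to 4 lower of 10 in BAT minus iWAT and 1 to 6 against liver and against muscle. The 12 other TOP mRNAs split 3 to 4, 2 to 7 and 4 to 5, and the 23 regulators of TOP mRNAs and growth 10 to 4, 11 to 7 and 5 to 12, in the same order of tissues, with TMM. Library totals gave 0 to 9, 1 to 1 and 1 to 5 for elongation factors, 1 to 11, 3 to 1 and 4 to 5 for other TOP mRNAs, and 3 to 14, 13 to 5 and 5 to 12 for regulators. Relative to the median gene, each list's median moved by at most 0.02 between these scalings.

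In BAT, a small number of members differed between UCP1 KO and WT relative to the median gene, by amounts mostly under 1.5-fold. This comparison asks what changes in brown fat that cannot use UCP1. UCP1 KO minus WT, 8 of 86 members passed the test at an adjusted p under 0.01 (25.2% of all genes did, 13.8% higher and 11.4% lower), 4 higher (Rpl39l, Rpl22l1, Rpl36al, Rpl38) and 4 lower (Rplp2, Rps29, Rps25, Rps19). The median log2 fold change was -0.01 against 0.01 over all genes with TMM scaling, which centres on the bulk of genes, and 0.30 against 0.31 with library totals, where 33 members (38.4%) were called, all higher, against 36.2% of all genes (33.3% higher). With TMM, 21 members (24.4%) had an unadjusted p under 0.05, against 48.9% of all genes. Except for Rpl39l, Rpl22l1 and Rpl3l, all 86 members tested changed by less than 0.5. Levels in the genotype comparisons are CPM with TMM scaling within the tissue.

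Rpl39l showed the largest called rise. It was at 1.37, 1.58, 1.19, 1.17 and 1.71 CPM in WT and 1.65, 1.04, 0.936, 1.80 and 2.31 CPM in FGF21 KO. It was at 3.00, 5.42, 6.48, 3.62 and 3.82 CPM in UCP1 KO and 3.71, 5.52, 4.10, 2.78 and 3.30 CPM in dKO. All 10 libraries without UCP1 lay above all 10 libraries with it. The gene is rare (34 to 59 counts per WT library and 112 to 318 per UCP1 KO library) and has no repeated window. Among the other called members the share of repeated windows ran from 24.74% (Rps29) to 59.02% (Rpl36al), with Rpl22l1 at 50.77%. The log2 fold change of Rpl39l was 1.67 ± 0.26 (SE, adjusted p = 8.61e-05) in UCP1 KO minus WT and 1.33 ± 0.26 (adjusted p = 0.00113) in dKO minus FGF21 KO. The exact two-sided permutation test of 5 against 5 libraries gave p = 0.00794 in each comparison, the smallest that it can give. Its paralog Rpl39 was at 50.9 to 60.7 CPM in WT and 46.6 to 53.5 CPM in UCP1 KO and did not pass the test.

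Rpl22l1 was at 13.7, 13.0, 11.6, 13.9 and 13.3 CPM in WT and 18.2, 17.8, 20.1, 21.9 and 29.5 CPM in UCP1 KO, with every UCP1 KO library above every WT library. In FGF21 KO it was at 11.6, 11.5, 13.2, 12.7 and 16.4 CPM and in dKO at 16.3, 17.9, 17.9, 20.7 and 15.2 CPM, where the highest FGF21 KO library overlapped the lower dKO libraries. The fold change was 0.72 ± 0.13 (adjusted p = 0.000302) in UCP1 KO minus WT and 0.43 ± 0.13 (adjusted p = 0.0194) in dKO minus FGF21 KO. Rpl22 itself was at 77.8 to 85.7 CPM in WT and 70.2 to 84.3 CPM in UCP1 KO.

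Rpl38, a small protein of the large subunit, was at 52.5, 52.3, 52.3, 55.5 and 58.0 CPM in WT and 68.9, 58.4, 65.0, 66.7 and 72.5 CPM in UCP1 KO. It was at 56.9, 51.5, 51.2, 54.9 and 62.6 CPM in FGF21 KO and 67.8, 65.6, 66.7, 78.3 and 63.8 CPM in dKO. The groups were apart in both comparisons, with rises of 0.29 ± 0.07 (adjusted p = 0.00326) and 0.30 ± 0.07 (adjusted p = 0.00442). Rpl36al was at 18.5, 17.5, 17.6, 17.4 and 20.6 CPM in WT and 21.4, 20.7, 24.02, 24.5 and 23.9 CPM in UCP1 KO, apart by a narrow margin, and rose by 0.32 ± 0.09 (adjusted p = 0.00965). In dKO minus FGF21 KO its difference was 0.19 ± 0.09 (adjusted p = 0.128), and with 1 of the 20 libraries left out its call in UCP1 KO minus WT held in 6 of 20 fits.

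Of the members that fell, Rplp2 was at 189, 203, 227, 219.5 and 236 CPM in WT and 159, 158, 183, 167 and 163 CPM in UCP1 KO, with no overlap. In FGF21 KO it was at 193, 184, 183, 186 and 226 CPM and in dKO at 171, 164, 168, 152 and 169 CPM, again with no overlap. Its fold change was -0.37 ± 0.07 (adjusted p = 0.000614), and -0.24 ± 0.07 (adjusted p = 0.0205) in dKO minus FGF21 KO. Rps29, a zinc-binding protein of the small subunit head, was at 138, 137, 149.7, 147 and 159.5 CPM in WT and 119, 123, 115, 111 and 121 CPM in UCP1 KO, a change of -0.31 ± 0.07 (adjusted p = 0.00199). Both were lower in every UCP1 KO library.

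Rps25, a small subunit protein used by viral internal ribosome entry sites, was at 151, 146, 142, 141 and 157 CPM in WT and 116, 121, 122, 129 and 119.5 CPM in UCP1 KO, a change of -0.28 ± 0.07 (adjusted p = 0.00297). Rps19, mutated in Diamond-Blackfan anaemia, was at 157, 159.7, 164, 160.0 and 177 CPM in WT and 135, 147, 141, 141 and 141 CPM in UCP1 KO, a change of -0.21 ± 0.06 (adjusted p = 0.00861), called in 3 of 20 fits with 1 library left out. Every UCP1 KO library lay below every WT library for both genes. With library totals in place of TMM, which moved the median of all genes to 0.31, the 4 falls were no longer called: Rplp2 was at -0.07, Rps29 at -0.01, Rps25 at 0.02 and Rps19 at 0.09. The 4 falls are thus falls relative to the median gene.

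**Figure D3:**
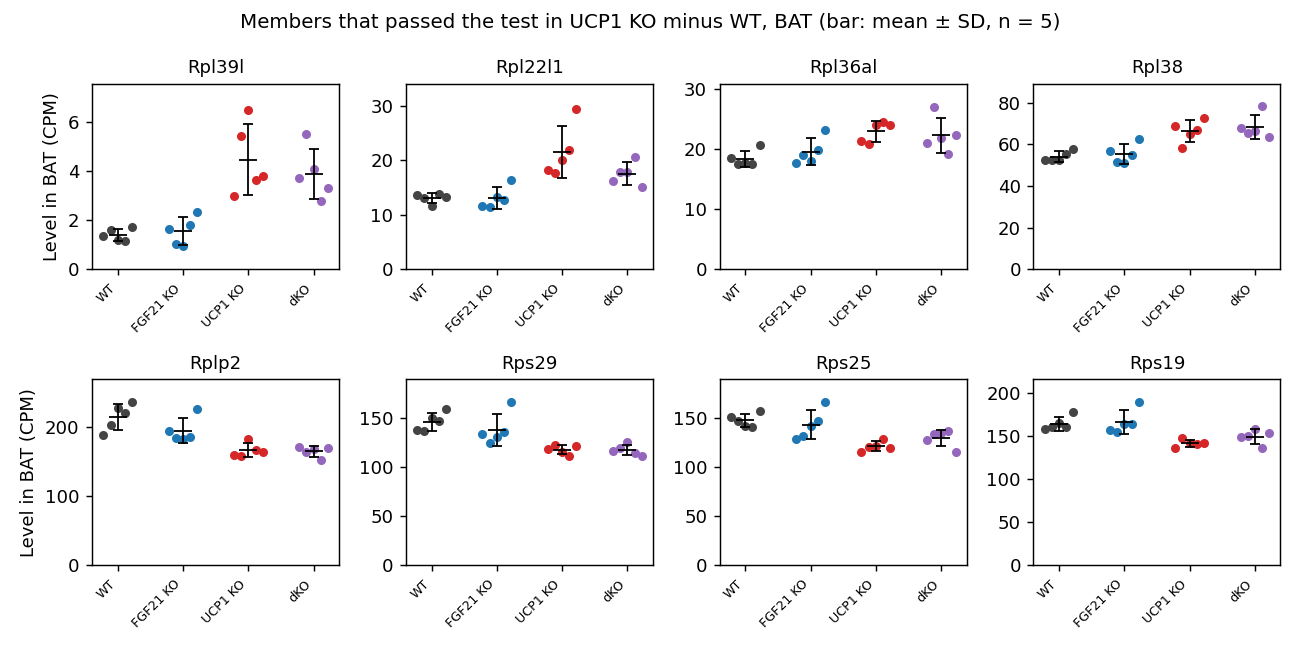
BAT levels (y axis, CPM with TMM scaling, from 0) of the 8 members called in UCP1 KO minus WT, 1 panel each; points are the 5 libraries of a genotype (x axis), bars mean ± SD. Rpl39l lies at 1.17 to 1.71 CPM in WT and 3.00 to 6.48 CPM in UCP1 KO, and Rplp2 at 189 to 236 CPM and 158 to 183 CPM.

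The 8 called members had the same sign in dKO minus FGF21 KO, which shares no library with UCP1 KO minus WT. So had 99.3% of the 3965 genes called in UCP1 KO minus WT, and the called members are no exception among them. Over all members tested 84.9% had the same sign in both, and over all genes tested 83.3%. In dKO minus FGF21 KO, 2 members passed (Rpl39l and Rpl38, both higher, where 13.5% of all genes passed, 6.74% higher and 6.8% lower). In the test of the difference between both comparisons, 0 members passed by edgeR or DESeq2 and 0 had an unadjusted p under 0.05 (5.37% of all genes), with the largest difference at 0.34 ± 0.36 for Rpl39l. Libraries of UCP1 KO and WT did not overlap for 6 members that were higher and 9 that were lower (23.5% of all genes did not overlap), and those of dKO and FGF21 KO for 2 and 2 (18.6%). FGF21 KO minus WT gave 0 called members (1 at an unadjusted p under 0.05, and 0 by DESeq2) and UCP1 KO minus dKO also 0 (3 unadjusted, 0 by DESeq2). Of all genes, 0% and 0.0636% were called, and 8.55% and 12.9% had an unadjusted p under 0.05. Over the 4 genotypes 8 members passed (29.7% of all genes): Rpl3l (adjusted p = 0.00783) in place of Rpl36al (0.0186) joined the other 7.

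Rpl3l moved with skeletal muscle markers in BAT. It was at 0.335, 0.316, 0.979, 0.585 and 0.463 CPM in WT and 0.644, 33.9, 2.91, 1.91 and 0.611 CPM in UCP1 KO, with 3.90 ± 1.19 in UCP1 KO minus WT (adjusted p = 0.0141). In dKO it was at 18.4, 0.314, 21.0, 11.5 and 1.55 CPM. The UCP1 KO library at 33.9 CPM and the dKO libraries at 18.4, 21.0 and 11.5 CPM are those with a muscle score above 8, and all 10 muscle markers had counts in every BAT library. In bulk tissue, a change in the number of cells of a type and a change in RNA per cell cannot be told apart. Without these 4 libraries, UCP1 KO minus WT still gave 8 called members, 4 in each direction (25% of all genes passed), and dKO minus FGF21 KO gave 1, Rpl39l (12.1% of all genes), with Rpl38 at 0.22 and an adjusted p of 0.0491. The macrophage score was also higher in part of the UCP1 KO libraries (3.98 to 5.48, against 3.77 to 4.09 in WT), and its part in these results was not tested.

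Other lists of the translation machinery were counted in the same BAT comparison, where 25.2% of all genes passed. Ribosome biogenesis genes rose in 14 and fell in 2 of 44 cases in UCP1 KO minus WT (median 0.23), led by Rrp12 (1.02), a factor of subunit export, Grwd1 (0.89), a chaperone of Rpl3, and Polr1a (0.68), the catalytic subunit of RNA polymerase I, while Imp4 (-0.50) and Emg1 (-0.42), both of small subunit processing, fell. Initiation factors rose in 12 of 34 cases and fell in 0, led by Eif1a (1.02), Eif3c (0.64) and Eif2s2 (0.54). Of 10 elongation factors 2 rose, Eef1e1 (0.62) and Eef1a2 (5.40), the latter the form of EF1A used in muscle. Of 12 other TOP mRNAs 3 fell, among them Gltscr2 (-0.28) and Pabpc1 (-0.27), which encodes the poly(A)-binding protein. Among 23 regulators, Myc (1.85), an activator of ribosome biogenesis, and the S6 kinase family member Rps6ka1 (1.98) rose, and the cap-binding inhibitors Eif4ebp2 (-0.88) and Eif4ebp1 (-0.52) and the RNA polymerase III repressor Maf1 (-0.52) fell. Mitochondrial ribosomal protein genes rose in 5 and fell in 18 of 76 cases (median -0.10). The other TOP mRNAs (3 of 12), regulators (6 of 23), elongation factors (2 of 10) and mitochondrial ribosomal proteins (23 of 76) passed at shares near that of all genes. In dKO minus FGF21 KO, where 13.5% of all genes passed, the counts, higher to lower, were 3 to 1 for biogenesis, 8 to 2 for initiation, 1 to 0 for elongation, 0 to 3 for other TOP mRNAs, 2 to 2 for regulators and 3 to 8 for mitochondrial ribosomal proteins. With library totals (19% of all genes passed, 17.3% higher) these became 20 to 0, 16 to 0, 3 to 0, 1 to 0, 6 to 1 and 28 to 2, so the direction of the other TOP mRNAs and the mitochondrial ribosomal proteins turned. With library totals, UCP1 KO minus WT (36.2% of all genes) gave 35 to 0 for biogenesis, 25 to 0 for initiation, 5 to 0 for elongation, 4 to 0 for other TOP mRNAs, 9 to 2 for regulators and 29 to 3 for mitochondrial ribosomal proteins, and Gltscr2 (0.01) and Pabpc1 (0.03) changed sign without a call. The medians relative to all genes were 0.22 for biogenesis and -0.12 for mitochondrial ribosomal proteins under that scaling, and 0.22 and -0.11 with TMM.

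In iWAT no genotype comparison gave a called member, by edgeR or by DESeq2. The counts at an unadjusted p under 0.05 were 4 of 87 in UCP1 KO minus WT, 3 in dKO minus FGF21 KO, 0 in UCP1 KO minus dKO, 7 in FGF21 KO minus WT, 2 in the test of the difference between both UCP1 comparisons and 5 over the 4 genotypes. Of all genes, 14.7%, 8.62%, 14.2%, 17.4%, 9.98% and 22.5% had such a p, a larger share than of the members in each case. At the adjusted threshold 0.61%, 0.0115%, 0.466%, 0.00575%, 0% and 1.74% of all genes passed. The members did not lie evenly around 0. In FGF21 KO minus WT, 82 of 87 were positive with a median of 0.32 (all genes -0.01). In UCP1 KO minus dKO, 8 of 87 were positive with a median of -0.19 (all genes -0.04). The medians were -0.14 in UCP1 KO minus WT (all genes -0.03) and -0.27 in dKO minus FGF21 KO. Single members had a median SE of 0.233, so these shifts were not detectable gene by gene. Members vary together within a library, so counts of signs over members are not counts of independent genes.

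**Figure D4:**
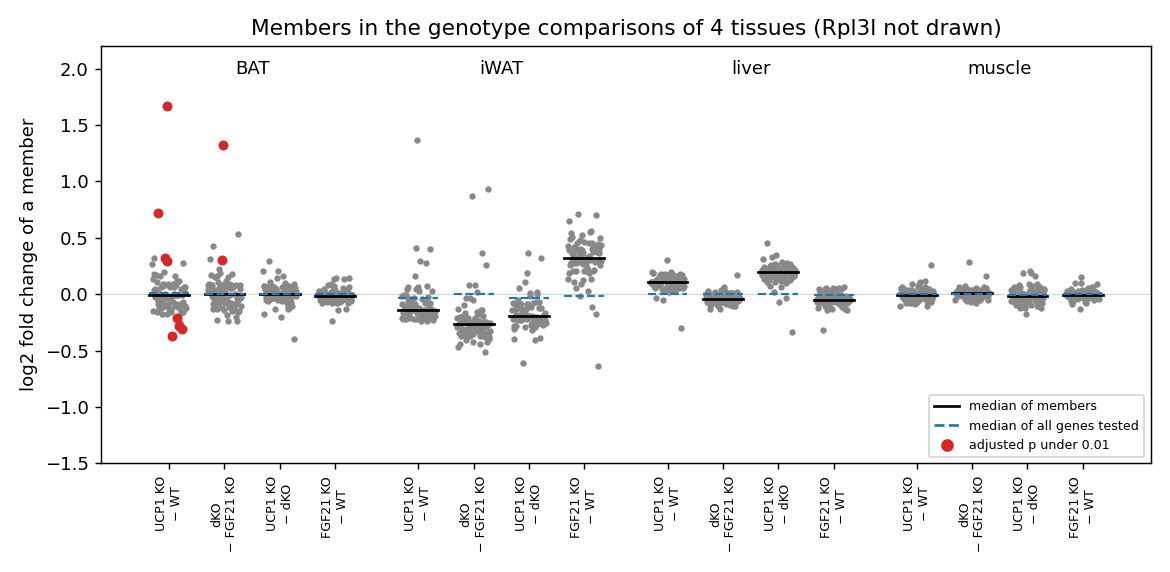
log2 fold change (y axis) of every tested member (points) in the genotype comparisons of each tissue (x axis), with the median of the members and of all genes tested; red points passed at an adjusted p under 0.01 and Rpl3l is not drawn. Red points stand in BAT only, 8 in UCP1 KO minus WT and 2 in dKO minus FGF21 KO.

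Lymph node signal was uneven between the iWAT libraries. Cd79a, the B cell receptor chain, and Cd3e, the T cell receptor chain, divided the 20 iWAT libraries at a wide gap: Cd79a was at 173 to 368 CPM and Cd3e at 28.5 to 60.4 CPM in 9 libraries, and at 0.60 to 5.89 and 0.507 to 1.74 CPM in the 11 others. The 9 libraries were WT 4 and 5, UCP1 KO 2, dKO 1 and 3, and FGF21 KO 1, 3, 4 and 5, so FGF21 KO had 4 of the 9 and UCP1 KO 1. This split was made from the data and is not a group of the study. With the score of Cd79a and Cd3e as a covariate, the median of the members came to 0.04 in UCP1 KO minus WT, -0.03 in UCP1 KO minus dKO and 0.09 in FGF21 KO minus WT. In the 11 libraries without signal alone, it was -0.08 in UCP1 KO minus WT and 0.02 in UCP1 KO minus dKO (all genes -0.02 in both), and 0 members were called, where 4.1% and 1.07% of all genes passed.

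Nearly all members were higher in the iWAT libraries with lymph node signal. They took 2.68 to 4.19% of counts (median 3.63%) in the 9 libraries with signal and 1.40 to 1.99% (median 1.68%) in the 11 without. The same held within every genotype: 2.68 and 3.24% against 1.70, 1.80 and 1.99% in WT, 3.61 to 4.19% against 1.52% in FGF21 KO, 3.14% against 1.40 to 1.70% in UCP1 KO, and 3.63 and 3.85% against 1.42 to 1.89% in dKO. In a fit with genotype as a term, 81 of 87 members passed, 77 higher and 4 lower. Of all genes 63.1% passed, 30.4% higher and 32.7% lower. The median log2 fold change was 0.70 for members and -0.05 for all genes. All 9 libraries lay above all 11 for 70 of 87 members (19.3% of all genes), below them for 1 (9.81% of all genes), and for 74 members the libraries with signal lay above those without in each of the 4 genotypes (24.4% of all genes).

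Rps27, a zinc-finger protein of the small subunit, had the largest called rise. Its lowest, median and highest levels were 386, 546 and 644 CPM in the libraries with signal and 172, 201 and 240 CPM in those without, a log2 fold change of 1.39 ± 0.09 (adjusted p = 5.8e-10). Rpl12, a base of the stalk, was at 345, 452 and 507 CPM against 161, 177 and 207 CPM (1.26 ± 0.08, adjusted p = 2.05e-10). Rps16, a small subunit protein that contacts the P-site tRNA, was at 289, 377 and 424 CPM against 145, 161 and 186 CPM (1.15 ± 0.07, adjusted p = 1.93e-10). For these members the groups were far apart. Rpl13a, a member with a role in interferon-controlled translation, was at 548, 679 and 764 CPM against 257, 318 and 354 CPM (1.13 ± 0.08, adjusted p = 1.16e-09). Rps15a, whose start sequence is given above, was at 354, 467 and 562 CPM against 188, 210 and 248 CPM (1.11 ± 0.08, adjusted p = 2.65e-09).

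The 4 members that were lower in the libraries with signal were the paralogs Rps27l, Rps4l and Rpl39l, and Rps19bp1. Rps27l was at 36.1, 43.2 and 45.5 CPM with signal and 50.8, 60.3 and 81.7 CPM without (-0.48 ± 0.07, adjusted p = 6.06e-06), the one member for which all 9 libraries lay below all 11. Rps4l was at 7.54, 11.4 and 17.2 CPM against 15.7, 20.5 and 30.2 CPM (-0.73 ± 0.12, adjusted p = 2.64e-05). Both thus moved against Rps27 and Rps4x, the latter of which was at 722, 912 and 1072 CPM with signal and 440, 523 and 673 CPM without. Rpl39l was at 1.02, 1.52 and 2.30 CPM against 1.22, 3.66 and 10.6 CPM, with overlap (-1.28 ± 0.36, adjusted p = 0.00386), while Rpl39 was at 172, 199 and 240 CPM against 116, 130 and 148 CPM. Rps19bp1 was at 8.01, 9.62 and 11.5 CPM against 10.3, 13.7 and 16.3 CPM (-0.37 ± 0.08, adjusted p = 0.000284). With library totals, which moved the median of all genes from -0.05 to 0.28, Rps27l (-0.15), Rpl39l (-0.94) and Rps19bp1 (-0.03) kept their sign without the call. The 6 members that did not pass were Rpl32l, Rpl36al (0.03), Rpl37rt (0.23), Rpl41 (0.16), Rpl7l1 (-0.13) and Rpl3l (3.66, adjusted p = 0.0867).

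By structure, 31 of 33 small subunit members were higher and 2 lower (median 0.79), and 46 of 53 large subunit members were higher and 1 lower (median 0.61). The 7 tested paralogs of the fixed list were 1 higher and 3 lower, and the 79 other ribosomal protein members, Rps19bp1 not counted, were 76 higher and 0 lower (median 0.71). Members with and without a TOP start had medians close to each other: 13 of 14 members with it were higher (median 0.68), and of 51 tested members without it 44 were higher and 2 lower (median 0.70). These classes rest on the annotated start base, and the class without a TOP start includes members with a pyrimidine run beginning with T, such as Rpl27a. The medians therefore do not set TOP against other mRNAs. Of the 10 tested members with no repeated window, 5 were higher and 3 lower (median 0.64).

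The other lists of the translation machinery are read against the 63.1% of all genes that passed, 30.4% higher and 32.7% lower. Of 76 mitochondrial ribosomal protein genes, 0 were higher and 69 lower in libraries with signal (median -0.45, from -1.06 to 0.14), while library totals gave 4 higher and 23 lower (median -0.12), and they took 0.206 to 0.245% of counts against 0.221 to 0.328%. Of 12 other TOP mRNAs, 10 were higher and 1 lower, among them Fau (1.01), which encodes a ribosomal protein fused to a ubiquitin-like domain, Hnrnpa1 (0.85) and the nucleolar chaperone Npm1 (0.84), with the filament gene Vim lower (-0.52). Biogenesis genes were 27 higher and 2 lower of 44, led by the nucleolar factors Nop56 (0.94), Utp15 (0.87) and Fbl (0.83), with Polr1d (-0.29) and Sbds (-0.22) lower. Initiation factors were 7 higher and 14 lower of 34, with Eif3f (0.48), Eif4b (0.43) and Eif3h (0.27) highest and Eif2b3 (-0.80), Eif1a (-0.55) and Eif4g1 (-0.50) lowest. Elongation factors were 6 higher and 2 lower of 10, with Eef1b2 (0.75), Eif5a2 (0.71) and Eef1a1 (0.32) highest and Eef2k (-0.44) and Eif5a (-0.20) lower. Regulators were 6 higher and 9 lower of 23, with Rps6ka1 (1.74), Myc (1.13) and Rictor (0.88) highest and Eif4ebp1 (-0.95), Sesn2 (-0.73) and Rheb (-0.54) lowest. The shares that passed in either direction among initiation factors (21 of 34), regulators (15 of 23) and biogenesis genes (29 of 44) were near that of all genes. With library totals (59.1% of all genes passed, 45.2% higher) the counts, higher to lower, were 11 to 0 for other TOP mRNAs, 40 to 0 for biogenesis, 20 to 2 for initiation, 6 to 0 for elongation and 10 to 2 for regulators, and Polr1d (0.04), Sbds (0.11) and Eif5a (0.14) changed sign without a call. Relative to all genes, the median was 0.75 higher for the members and -0.4 for mitochondrial ribosomal proteins under either scaling.

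**Figure D5:**
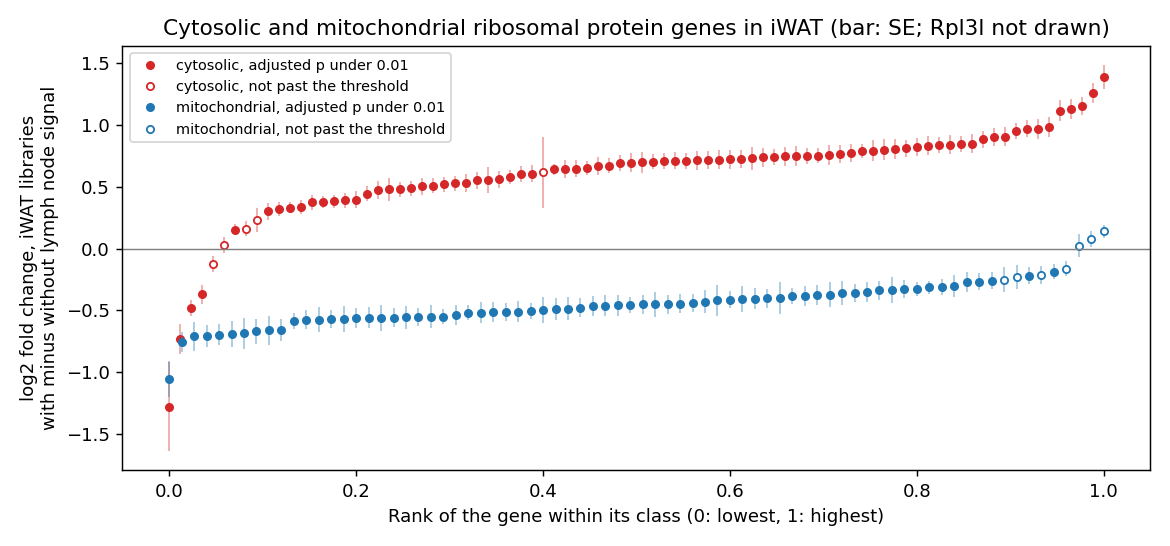
log2 fold change of iWAT libraries with minus without lymph node signal (y axis, points with SE) for cytosolic and mitochondrial ribosomal protein genes, each ordered by rank within its class (x axis, 0 lowest and 1 highest); filled points passed at an adjusted p under 0.01. Of the cytosolic genes 77 are higher and 4 lower, and of the mitochondrial genes 0 are higher and 69 lower.

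The adipocyte score moved with the signal: it was 9.05 to 10.4 with signal and 10.1 to 11.5 without, and lower with signal in each genotype, at 9.69 to 10.4 against 10.9 to 11.1 in WT, 9.05 to 10.1 against 11.3 in FGF21 KO, 10.12 against 10.13 to 11.01 in UCP1 KO and 10.04 to 10.2 against 10.96 to 11.54 in dKO. Its part in the members' difference was not tested. Other scores overlapped, the macrophage score 6.74 to 7.59 and 6.47 to 8.09, and the skeletal muscle score 1.33 to 9.74 and 1.49 to 10.4. All 8 markers of the wider lymph node list had counts in every iWAT library. More lymphocytes and a change of ribosomal protein mRNA in the same cells cannot be told apart in these libraries.

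In liver no member passed in any genotype comparison, by edgeR or by DESeq2. UCP1 KO minus dKO, which asks what FGF21 does in mice without UCP1, had the largest shift: 82 of 85 members were positive with a median of 0.19 against 0.00 over all genes, and 36 (42.4%) had an unadjusted p under 0.05, against 8.25% of all genes. At the adjusted threshold 0.00694% of all genes passed. Members vary together within a library, so this count is not one of independent genes. The smallest adjusted p was 0.55, for Rps15a. Rps15a was at 97.2, 109, 102, 108 and 124 CPM in UCP1 KO and 78.7, 85.2, 95.6, 102 and 88.3 CPM in dKO, with overlap, a difference of 0.26 ± 0.09. In WT it was at 89.6, 114, 85.4, 107 and 97.9 CPM, which spans most of both groups. The share of counts on members was 1.02 to 1.36% in UCP1 KO, 1.01 to 1.13% in dKO and 0.96 to 1.25% in WT, so the groups overlap. UCP1 KO minus WT had a median of 0.10 with 81 of 85 members positive, and 1 unadjusted p under 0.05 (10.2% of all genes), and 0.0694% of all genes were called. The unadjusted counts were 0 in dKO minus FGF21 KO, 1 in FGF21 KO minus WT, 0 in the test of the difference between both UCP1 comparisons and 6 over the 4 genotypes, against 6.75%, 7.54%, 5.16% and 11.6% of all genes. At the adjusted threshold 0.00694%, 0.229%, 0% and 0.34% of all genes passed. None of the genes of the other translation lists passed in UCP1 KO minus dKO, and in FGF21 KO minus WT 1 of 10 elongation factors did, Eef1a2 (-2.45 ± 0.40, adjusted p = 0.00516).

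In muscle the members had the smallest spread between libraries. None passed in any genotype comparison by edgeR or DESeq2, medians lay between -0.02 and 0.01, and all 86 members tested stayed within 0.5 on the log2 scale with a median SE of 0.0476. The counts at an unadjusted p under 0.05 were 1 in UCP1 KO minus WT, 0 in dKO minus FGF21 KO, 8 (9.3%) in UCP1 KO minus dKO and 1 in FGF21 KO minus WT, against 9.81%, 7.96%, 11.7% and 12.9% of all genes. Over the 4 genotypes it was 2 (16.3% of all genes), and 0 in the test of the difference between both UCP1 comparisons (7.48%). At the adjusted threshold 0.0265%, 0.0595%, 0% and 0.00662% of all genes passed in the 4 pairwise comparisons, and 0.086% over the 4 genotypes. Rpl3l, the muscle form of Rpl3, was at 370.1 to 395 CPM in WT, 347 to 395 in FGF21 KO, 362 to 400.0 in UCP1 KO and 318 to 372 in dKO, and Rpl38 at 40.5 to 44.6, 43.0 to 48.3, 40.7 to 43.0 and 41.8 to 47.7 CPM.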

How the data were processed

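Poly(A) RNA libraries were sequenced and, per the labels and the study's methods, read alignment used STAR on mm10 (GRCm38, UCSC known genes); the authors deposited raw counts per gene from HTSeq-count. The strand option and the treatment of reads with several matches are not given in the sources used here. The row named unknown (at most 3.4e-05% of a library) was left out.

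Counts of each tissue's 20 libraries were filtered (maximum above 15, sum above 75, at most 10 libraries at 0) and tested in 1 fit over the 4 genotypes with edgeR 4.0.16 in R 4.3.3 (quasi-likelihood F test, TMM factors). The same was done for the 20 WT libraries over tissues, and for iWAT with an indicator of lymph node signal beside genotype. p-values were adjusted by Benjamini-Hochberg over all genes tested, and an adjusted p under 0.01 was called. The threshold and filter follow the study's methods, whose tool, DESeq2 (1.42.0 here), was an alternative, as were other scalings, no filter, marker scores as covariates and leaving out each library. The iWAT indicator was set at the middle of the widest gap between libraries in the mean log2 of CPM + 0.1 of Cd79a and Cd3e. Permutation tests used log2 of CPM + 2 and were exact and two-sided. The members, gene lists and tests were chosen with earlier results of these data known. Named members were the called ones with up to 5 largest rises and falls per comparison, the 8 with the widest range over WT tissues, fixed paralog pairs, the 3 highest and lowest per tissue, and a member that is no ribosomal protein. Some genes that this rule names are not reported here. From the other lists, the called genes with the 3 largest rises and falls were named; Rpl41, Rpl7l1, Rpl37rt and Rpl32l in iWAT, Rpl38 in muscle and Rps15a in liver were named after their values were seen. The procedure was checked on simulated counts, in which 200 genes were changed. In UCP1 KO minus WT, 1.5-fold changes were called in 38.8% of cases in BAT, 4.48% in iWAT, 31.3% in liver and 68.7% in muscle. For 2-fold changes it was 53.7%, 29.9%, 62.7% and 80.6%, so changes of these sizes can be missed. Libraries held 28691377 to 50380696 counts, and the spread between libraries of a genotype exceeded Poisson counting error for every tested member (median ratio of SDs 3.19 in muscle to 24.9 in iWAT).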

Additional observations from a re-analysis of the deposited data

Results flagged for a closer look

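Within groups of 5 libraries, a library was singled out where its gap to the nearest other, divided by the group's range, exceeded 0.71 (Dixon's 95% value). Chance gives this in about 1 of 20 groups. Of 16 groups tested for the share of counts on members, 2 had such a library, both in iWAT. FGF21 KO replicate 2 had a share of 1.52%, with the next library at 3.61%, and is the only library of its group without lymph node signal. UCP1 KO replicate 2 had 3.14%, with the next at 1.70%, and is the only one of its group with that signal.

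Of 36 groups tested for members in BAT, 5 had such a library. Rpl38 was at 78.3 CPM in dKO replicate 4, with the next library at 67.8 CPM. Rpl3l was at 33.9 CPM in UCP1 KO replicate 2, with the next at 2.91 CPM, and that library has the group's highest skeletal muscle score. FGF21 KO replicate 5 stood above its group for 3 members: Rplp2 at 226 CPM (next 193), Rps19 at 189 CPM (next 163) and Rps29 at 167 CPM (next 136).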

How the results depend on the processing

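Of 29 counts of called members, 21 were 0 under every setting run. For the others, leaving out each library in turn gave 6 to 11 in UCP1 KO minus WT in BAT, 1 to 4 in dKO minus FGF21 KO, 5 to 12 over the 4 genotypes of BAT, 67 to 80 over the 4 tissues, 50 to 66 in BAT minus iWAT, 51 to 61 in BAT minus liver, 47 to 59 in BAT minus muscle and 79 to 82 for lymph node signal. The 4-genotype count in BAT was 5 without WT 1, 2, 3 or 4, dKO 1, or FGF21 KO 3 or 4, and dKO minus FGF21 KO gave 4 without UCP1 KO 2 or FGF21 KO 5 and 1 without FGF21 KO 2 or 3. Library totals gave 33 in UCP1 KO minus WT, 15 in dKO minus FGF21 KO, 36 over the 4 genotypes, and 29 and 26 in BAT minus liver and minus muscle. DESeq2 gave 6 in dKO minus FGF21 KO and 13 over the 4 genotypes of BAT, and dKO minus FGF21 KO gave 1 with the muscle score as a covariate and 1 without the libraries with a muscle score above 8, an alternative chosen after seeing the data. With that covariate Rpl38 lost its call in the edgeR test at 0.32 (adjusted p = 0.0171), against 0.30 in the main fit. Library totals reversed Rps25 (0.02) and Rps19 (0.09) in UCP1 KO minus WT and Rpl37rt (-0.11), Rpl7l1 (-0.18) and Rps19bp1 (-0.21) in BAT minus iWAT. Of 294 values of named members under settings other than a left-out library, 276 kept direction and call, 13 kept the direction without the call and 5 reversed. With a library left out, Rps19 was called in 3 of 20 fits and Rpl36al in 6 of 20, while Rpl39l, Rpl22l1, Rpl38, Rplp2 and Rps29 were called in 20 of 20 in UCP1 KO minus WT. Apart from the scalings, whose shift of the median gene is given above, the cause was not tested. No paired analysis was possible because the labels carry no replicate numbers (those printed follow the order of listing) and link no libraries of a mouse. Counts at or near 0 limit any statement on Rpl10l and Rpl32l, and on Rpl39l in liver.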
